A study of Cucumis sativus with 6 samples.

Results

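A set of 73 cucumber transcript models, moderately expressed in the shoot apex, had a much higher level in the libraries labelled soil plate than in those labelled germination pouch. They were taken from 24317 transcript models in all. The choice was made on measured values, in CPM, the estimated count divided by the library sum and scaled to 1000000. Models whose identifier carries UNG and the 100 most abundant other models were left out, and a mean of at least 10 CPM over the 6 libraries was required. That abundance part was met by 11357 models. A member then needed a lowest soil plate value at least 2 times its highest pouch value. Each identifier has 1 transcript model, so a member is called a gene below. The difference between the groups is therefore how the genes were chosen and is given as a description.

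The 6 libraries came from shoot apices of cucumber (Cucumis sativus) line 9930, an inbred line that served for a reference genome of the species. Soil plate seedlings stood on a nylon mesh that covered soil in an agar plate, and 7 apices were pooled in each of 3 libraries. Pouch seedlings grew in wet germination pouches, and 20 apices were pooled in each of 3 libraries. Both groups carry the same genotype with no introduced allele, were 6 dpg in age and grew at 22 degrees in long days of 16 h light and 8 h dark, per the labels. The number of pooled apices and the growth condition cannot be told apart in this design. The name of the deposited file gives the opposite growth condition for every library. The groups here are those of the sample titles, and each direction would turn round if the file names were right.

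The shoot apical meristem is a small dome of dividing cells at the tip of the shoot. Its centre keeps a reserve of undifferentiated cells, and its flanks give rise to leaves and, in cucumber, to axillary buds, tendrils and flowers. A dissected apex also holds young leaf primordia and the upper stem. In such bulk samples, fewer cells of a type and less RNA per cell cannot be told apart. The deposited tables identify genes by CsaV3 identifiers without names, and 0 of the 24317 identifiers matched the 23999 genes of the RefSeq table for the 9930 V3 assembly. No function is therefore given for any member, no marker check of the labelled tissue was made, and no sequence is printed. Members are referred to by their rank in the ratio of lowest soil plate to highest pouch CPM, where rank 1 has the largest ratio.

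The soil plate libraries held 30.7 to 39.5 M (mega) estimated counts, and pouch replicates 1 to 3 held 28.9, 46.6 and 47.8 M. Transcript models with at least 1 count numbered 17198 to 17628 in soil plate libraries. In pouch replicates 1 to 3 they numbered 17710, 18864 and 20361. Libraries were not alike within the pouch group. Pouch replicate 1 lay nearer the soil plate libraries than pouch replicates 2 and 3 did for most members. The folds of means, the number of genes that met the rule and the members called in the test are also given without it. Group values for shares of counts and for spreads between pouch libraries include it and are not given without it. The scale also differed between groups. Over the 11357 genes of the abundance part, the median CPM was 30.8 ± 1.73 in soil plate libraries and 39.7 ± 4.07 in pouch libraries (SD, n = 3 each). The median of the CPM ratios, soil plate over pouch, lay between 0.677 and 0.945 in the 9 pairs of libraries. A gene with equal CPM in both groups was thus high in soil plate relative to the bulk of genes, and the 73 members passed a ratio of 2 against that shift.

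Together the members took 1.48, 1.57 and 1.39% of all counts in soil plate replicates 1, 2 and 3, against 0.530, 0.346 and 0.381% in pouch replicates 1, 2 and 3. The means were 1.48% ± 0.092 in soil plate and 0.419% ± 0.098 in pouch (SD, n = 3 each). The soil plate libraries lay close together and the highest pouch library was replicate 1. The median member had 75.1, 73.1 and 64.4 CPM in soil plate replicates 1 to 3 and 26.3, 17.7 and 21.4 CPM in pouch replicates 1 to 3. In the same libraries, the median gene of the abundance part stood at 32.8, 30.0 and 29.7 CPM in soil plate and at 35.0, 41.9 and 42.2 CPM in pouch. The median member thus stood above the median gene of the abundance part in all 3 soil plate libraries and below it in all 3 pouch libraries.

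**Figure D1:**
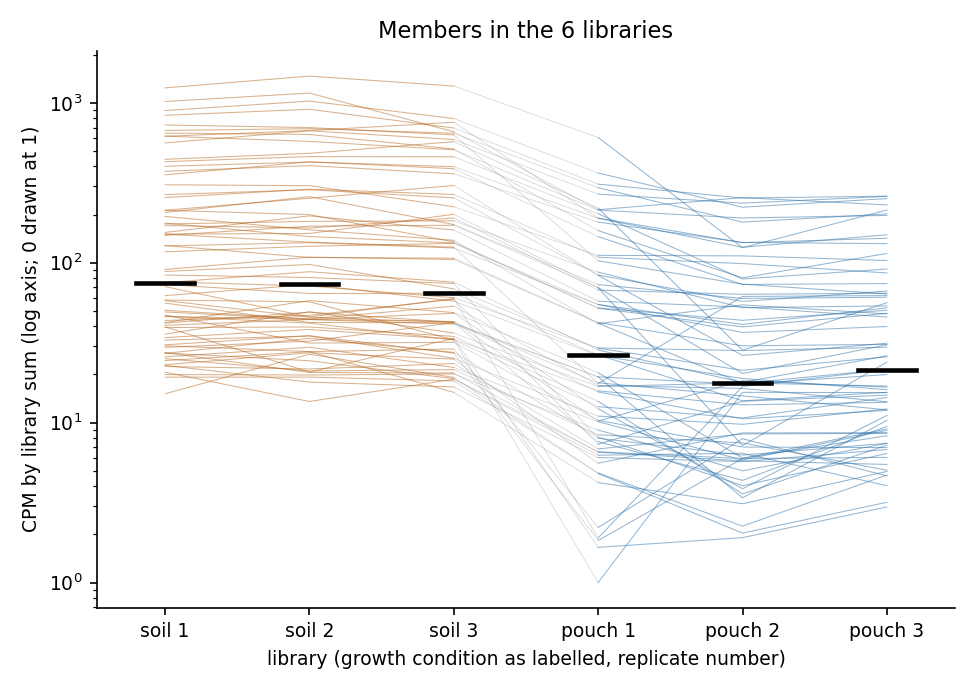
CPM by library sum (log axis) of the 73 members in the 3 soil plate libraries (brown) and the 3 pouch libraries (blue), 1 line per member, with the median of each library as a black bar. The medians are 64.4 to 75.1 CPM in soil plate and 17.7 to 26.3 CPM in pouch, and the only member at 0 in a library is drawn at 1 CPM in pouch replicate 1.

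The fold of the group means, soil plate over pouch, had a median of 3.34 over the members and ran from 2.36 to 14.4. Without pouch replicate 1 the median was 3.61 and the range 2.21 to 12.9. The fold of means was below 3 in 20 members, from 3 to below 6 in 50, and 6 or more in 3. The ratio the choice was based on was 2 to below 2.5 in 41 members, 2.5 to below 3 in 17, 3 to below 4 in 12 and 4 or more in 3. Most members were thus spread just above the limit, and the genes at ranks 1, 2 and 3 stood apart from the rest.

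CsaV3_6G037520.1 (rank 1, 1876 bases) had 83.7, 80.8 and 74.1 CPM in soil plate replicates 1 to 3, against 7.98, 6.26 and 7.43 CPM in pouch replicates 1 to 3. Both groups were tight, with a soil plate mean of 79.6 ± 4.94 CPM and a pouch mean of 7.22 ± 0.877 CPM (SD, n = 3 each), and its lowest soil plate value was 9.28 times its highest pouch value. Its estimated counts were partly fractional, which marks reads shared out between it and a similar sequence. Rank 2 (871 bases) had the largest fold of means, 14.4. It stood at 39.7, 20.7 and 33.7 CPM in soil plate and at 1.66, 1.91 and 2.97 CPM in pouch, with 48 to 142 counts behind the pouch values. Rank 3 (3803 bases) was more abundant, at 727, 700.3 and 630.2 CPM in soil plate and 103, 73.4 and 63.8 CPM in pouch. These genes at ranks 1 to 3 share the digit 6 in the chromosome place of their identifier.

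Below rank 3 the ratio dropped to 3.80. Rank 4 (1679 bases), the least abundant member by CPM, had 19.2, 19.3 and 18.2 CPM in soil plate and 4.81, 2.04 and 3.18 CPM in pouch. Rank 5 (657 bases) had 46.2, 44.2 and 48.3 CPM in soil plate and 12.2, 3.86 and 11.1 CPM in pouch. Rank 6 (3959 bases) had 27.1, 33.7 and 27.5 CPM in soil plate and 8.12, 4.03 and 6.42 CPM in pouch. In each of these genes the soil plate libraries were close together and pouch replicate 2 was the lowest library.

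The genes at ranks 7 and 8 were more abundant by CPM than those at ranks 4 to 6. Rank 7 (2823 bases) had 618, 671 and 756 CPM in soil plate and 190.1, 133 and 142 CPM in pouch. Rank 8 (2628 bases) had 647, 634 and 514 CPM in soil plate and 159, 80.5 and 114 CPM in pouch. Pouch replicate 1 was the highest pouch library in both. Rank 9 (2226 bases), another gene with divided reads, had 15.2, 26.8 and 19.2 CPM in soil plate and 4.84, 2.25 and 4.70 CPM in pouch. Rank 10 (2133 bases) had 27.4, 20.6 and 20.4 CPM in soil plate and 6.53, 5.77 and 5.48 CPM in pouch, with little spread between pouch libraries.

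The 5 members with the highest mean CPM had ratios between 2.04 and 2.58. Rank 25, at 2.58, lay above the median ratio of all members, 2.38, and ranks 45, 47, 48 and 66 lay below it. The highest in mean CPM was CsaV3_6G021240.1 (rank 66, 3443 bases). It had 1239.7, 1469.9 and 1273 CPM in soil plate and 607, 124 and 213 CPM in pouch. Its pouch mean of 315 ± 257 CPM (SD, n = 3) had a spread nearly as large as the mean, because pouch replicate 1 stood far above the other pouch libraries. Its soil plate mean was 1328 ± 124 CPM (SD, n = 3), and it held fractional counts. Rank 48 (2345 bases) had 895, 1025 and 798 CPM in soil plate and 364, 222 and 252 CPM in pouch. Rank 25 (2900 bases, fractional counts) had 1019.5, 1151 and 659 CPM in soil plate and 214, 255 and 229.9 CPM in pouch, so here the spread lay in the soil plate group. Rank 45 (3941 bases) had 836, 912 and 696 CPM in soil plate and 310.1, 254 and 261 CPM in pouch. Rank 47 (2484 bases) had 672, 689 and 646 CPM in soil plate and 294, 179 and 202 CPM in pouch. In rank 47 the soil plate libraries were within a narrow band, from 646 to 689 CPM. The soil plate libraries were wider apart in rank 48, from 798 to 1025 CPM, and in rank 45, from 696 to 912 CPM. Pouch replicate 1 was again the highest pouch library in rank 48, rank 45 and rank 47.

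Members just inside and just outside the limits had similar values. The last member, at rank 73 (2571 bases), had 175, 181 and 183 CPM in soil plate and 87.3, 52.4 and 53.7 CPM in pouch, a ratio of 2.002. Ranks 72 and 71 had ratios of 2.007 and 2.01. The first gene outside had a ratio of 1.99, with 50.1, 55.1 and 52.9 CPM in soil plate and 25.2, 12.7 and 16.4 CPM in pouch. The second and the third outside had ratios of 1.97 each, and both had no overlap between groups either. At the abundance limit, rank 4 and rank 58 were the members nearest to 10 CPM, with means over 6 libraries of 11.1 and 11.6 CPM. The first gene left out there had a mean of 9.95 CPM and a ratio of 2.32. Both limits therefore cut through a continuous range of values.

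**Figure D2:**
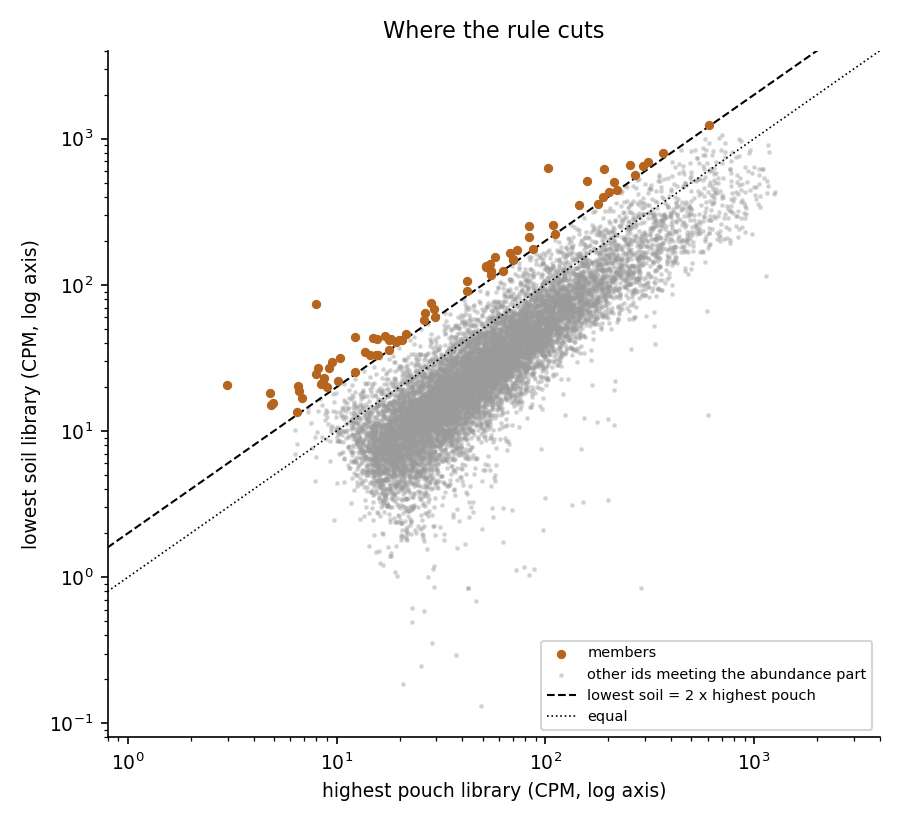
Lowest soil plate CPM (vertical) against highest pouch CPM (horizontal), both on log axes, for the 11357 genes of the abundance part, except 17 with a value under 0.1 CPM; members are brown and the other genes grey. The 73 members lie above the dashed line at a ratio of 2, most of them close to it, and the bulk of genes lies below the dotted line of equal values.

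The members were 0.643% of the 11357 genes. When the groups were exchanged, so that the lowest pouch value was at least 2 times the highest soil plate value, 190 genes (1.67%) passed. Every soil plate library lay above every pouch library in 977 genes (8.60%), members included, and every pouch library above every soil plate library in 4232 genes (37.3%). This balance depended on the scale. With CPM from library sums scaled by TMM factors (trimmed mean of M values, a correction for composition), 144 genes passed in the direction of the members, among them 72 of the 73, and 58 passed with the groups exchanged. The larger number thus lay with pouch on library sums and with soil plate after TMM scaling. The TMM factors were 0.845 to 0.941 in soil plate and 0.997, 1.21 and 1.20 in pouch replicates 1 to 3. This scaling therefore raises the ratio of every member by construction. Deposited TPM values, which divide by effective length, gave 73 genes in place of the members at the same number of abundant genes, and 53 of them were members.

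Across the abundance range, members were 16 of 2934 genes (0.545%) between 10 and 20 CPM and 22 of 4226 (0.521%) between 20 and 50 CPM. They were 8 of 2271 (0.352%) between 50 and 100 CPM, 12 of 1178 (1.02%) between 100 and 200 CPM and 15 of 748 (2.01%) above 200 CPM. The share was thus higher above 100 CPM than below it. Mean CPM over the 6 libraries is part of the choice and includes the soil plate values, so this is not an independent property of the members. Counts were seldom limiting. The lowest soil plate count of any member was 437, and in 67 of 73 members each pouch library held at least 100 counts.

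Levels between members can be compared per length, in TPM, but values of very short members rest on division by a small effective length. The mean TPM of soil plate libraries had a median of 40.7 over the members and ran from 5.60 at rank 6 to 2076 at rank 52. In the pouch libraries the mean TPM had a median of 13.9 and ran from 1.27 at rank 6 to 468 at rank 52. The gene at rank 52 is also the shortest member, at 279 bases, with an effective length of 50.2 to 58.0 bases across libraries. It had 1825, 1929 and 2472 TPM in soil plate and 939.9, 102 and 361 TPM in pouch. Its pouch libraries thus differed widely, replicate 1 being far above the others. On the CPM scale it had 151, 152 and 201 CPM in soil plate and 69.7, 7.18 and 23.9 CPM in pouch.

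This gene weighed on the members' sum. The members summed to 6949, 7244 and 7171 TPM in soil plate replicates 1 to 3 and to 2663, 1465 and 1923 TPM in pouch replicates 1 to 3. The share of rank 52 in that sum was 26.3 to 34.5% in soil plate and 6.97 to 35.3% in pouch. Without it the other 72 members summed to 5123, 5315 and 4699 TPM in soil plate and to 1723, 1363 and 1562 TPM in pouch. The pouch libraries were then closer to each other, and pouch replicate 1 stayed the highest of them.

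Other short and long members were less extreme. The next shortest, at rank 18 (321 bases), had 27.3, 24.4 and 18.8 CPM in soil plate and 6.57, 5.96 and 6.06 CPM in pouch. Rank 58 (594 bases) had 20.7, 13.6 and 18.7 CPM in soil plate and 6.26, 6.43 and 4.03 CPM in pouch. The longest member, at rank 67 (7633 bases, fractional counts), had 76.0, 71.5 and 60.4 CPM in soil plate and 29.3, 28.2 and 29.6 CPM in pouch, with the pouch libraries nearly equal. Rank 72 (4400 bases) had 373, 405 and 360.1 CPM in soil plate and 179, 134 and 132 CPM in pouch. Rank 63 (4342 bases, fractional counts) had 561, 669 and 589 CPM in soil plate and 269, 236 and 260.0 CPM in pouch. The spread was small beside the difference between groups in these genes at both ends of the length range.

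Pouch replicate 1 was the highest pouch library in 52 of the 73 members (71.2%), replicate 3 in 14 (19.2%) and replicate 2 in 7 (9.59%). Over the 11357 genes of the abundance part it was the highest in 2380 (21.0%), replicate 3 in 3983 (35.1%) and replicate 2 in 4994 (44.0%). The rule does not name a pouch library, but it keeps genes whose highest pouch value is low. After TMM scaling, a setting chosen after the data had been seen, pouch replicate 1 was the highest in 61 members (83.6%) and in 4769 genes of the abundance part (42.0%). In TPM it was the highest in 30 members (41.1%) and in 1197 of those genes (10.5%). The numbers therefore moved with the scale, and in each the share was higher among the members. The sets differ in direction. All members are higher in soil plate, while the fold of means had a median of 0.756 over the genes of the abundance part. A pouch library on the soil plate side of the others is the highest in the former case and the lowest in genes lower in soil plate. Relative to the mean of pouch replicates 2 and 3, pouch replicate 1 lay on that side in 80.8% of members and 77.0% of those genes, on library sums. The same mean sets both the place of pouch replicate 1 and the direction of soil plate, which by itself favours that side. These shares were therefore not tested and are given as a description.

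**Figure D3:**
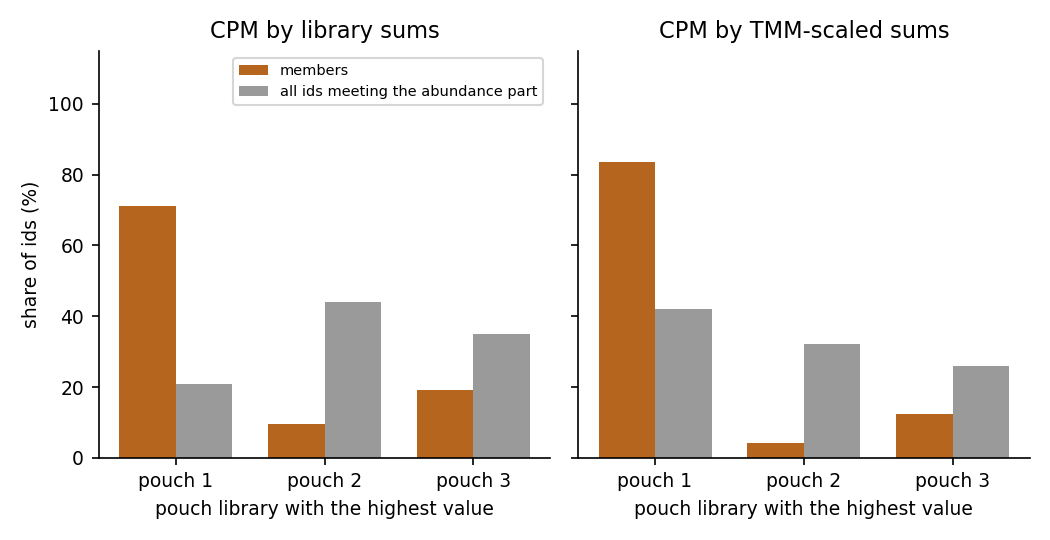
Share of genes (%) in which each pouch library had the highest value of the 3, for the 73 members (brown) and the 11357 genes of the abundance part (grey), on library sums (left) and on TMM-scaled sums (right). Pouch replicate 1 is the highest in 71.2% of members and 21.0% of genes on the left, and in 83.6% and 42.0% on the right. All members are higher in soil plate, while most genes of the abundance part are lower there on library sums.

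The commonest order within the pouch group was replicate 1 above replicate 3 above replicate 2, in 41 members (56.2%), against 1599 genes of the abundance part (14.1%). On a log2 scale on which the mean of pouch replicates 2 and 3 is 0 and the mean of the soil plate libraries is 1, pouch replicate 1 had a median position of 0.171 over the members. It lay above 0 in 59 members (80.8%) and above 0.5 in 7 (9.59%). Over the genes of the abundance part it lay above 0 in 8741 (77.0%) and above 0.5 in 5457 (48.0%), with a median of 0.465. The share above 0 was thus near that of all these genes. The position is unstable where the groups differ little, which the choice of members leaves out, so the other values are not on equal terms. For the 190 genes of the exchanged rule, on the same scale, the median position was 0.0905. In 7 members it had at least 2 times the value of the next pouch library, among them ranks 52, 66 and 68. Rank 68 (4223 bases) had 443, 483 and 572 CPM in soil plate and 219.6, 28.4 and 56.2 CPM in pouch.

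The opposite also occurred. Pouch replicate 1 was the lowest pouch library in 13 members (17.8%), against 7434 genes of the abundance part (65.5%). In 5 of the 13 members it was under 0.5 times the next pouch library. Rank 55 (1837 bases) had 58.4, 57.0 and 32.9 CPM in soil plate and 0, 15.5 and 15.4 CPM in pouch, from 0, 721 and 737 estimated counts in pouch. It was the 1 member listed at 0 in any library. Rank 54 (1623 bases) had 70.8, 45.8 and 59.6 CPM in soil plate and 1.90, 16.8 and 21.4 CPM in pouch. Rank 71 (1362 bases) had 151, 135 and 125 CPM in soil plate and 17.6, 61.5 and 62.3 CPM in pouch. In these genes pouch replicate 1 stood apart on the low side, away from the soil plate libraries.

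Without pouch replicate 1 the rule was met by 332 genes, among them 72 of the 73 members. Leaving out soil plate replicate 3 gave 130 genes, 72 of them members. Each other omission gave 78 to 91 genes, with 71 or 72 of the members. The largest change in the number of genes thus came without pouch replicate 1. With fewer libraries a rule on the lowest and highest value can only become easier to meet, so every member kept its ratio by construction and was lost, where it was, through the abundance part.

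In the soil plate group, replicate 3 was the lowest library in 37 members (50.7%), replicate 1 in 25 (34.2%) and replicate 2 in 11 (15.1%). In the genes of the abundance part replicate 3 was the lowest in 5201 (45.8%), replicate 1 in 2145 (18.9%) and replicate 2 in 4011 (35.3%). The SD of log2(CPM + 0.5) between soil plate libraries had a median of 0.17 over the members and 0.29 over the genes of the abundance part. Between pouch libraries it was 0.34 over the members and 0.25 over those genes. The SD was larger in pouch than in soil plate in 50 members (68.5%), against 5054 genes (44.5%). A small spread in soil plate helps a gene to meet the rule, so these figures describe the members and were not tested.

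In edgeR's quasi-likelihood test over 17794 genes, 7.85% of genes were called at a Benjamini-Hochberg adjusted p under 0.05, and 4.92% were called higher in soil plate. Among the 11357 genes of the abundance part, 6.98% were called higher in soil plate. These shares are with TMM scaling, where 875 of 1396 called genes were higher in soil plate. With library totals it was 538 of 2595. All 73 members were tested and 70 of them (95.9%) were called, each with a positive fold change. The members were chosen on this contrast, so nothing is read from that count. Their log2 fold changes, soil plate over pouch with TMM scaling, had a median of 2.10 and ran from 1.59 to 4.20, with a median standard error of 0.28. The median of all tested genes was -0.06. For CsaV3_6G037520.1 the fitted log2 difference was 3.80 (SE 0.22, edgeR adjusted p = 0.000384), and for CsaV3_6G021240.1 it was 2.34 (SE 0.58, edgeR adjusted p = 0.0422). CsaV3_6G021240.1 lost the call in 5 of the 6 fits that left out a library and kept it without pouch replicate 1 (log2 fold change 3.44, edgeR adjusted p = 0.000691).

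Ranks 52, 55 and 68 were not called, at edgeR adjusted p of 0.0549, 0.149 and 0.0562. These genes had an SD of log2(CPM + 0.5) between pouch libraries of at least 1.49, against a median of 0.30 in the called members. Rank 54, with an SD of 1.75, was called at an edgeR adjusted p of 0.0403. In rank 52 and rank 68 pouch replicate 1 was the highest pouch library, and in rank 55 it was the one at 0. Without pouch replicate 1 all 73 members were called, in a fit that called 2102 genes. Without pouch replicate 3 the number was 41, in a fit that called 103 genes. Without soil plate replicate 1 it was 46, in a fit that called 141 genes. The main fit called 1396 genes, so the fits with 41 and 46 members also called fewer genes in all. The numbers did not always go together. Without soil plate replicate 3, 67 members were called in a fit that called 1684 genes. The cause was not tested. The p-values set the group difference against the spread between these pools of apices, and the spread between single plants was not measured.

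**Figure D4:**
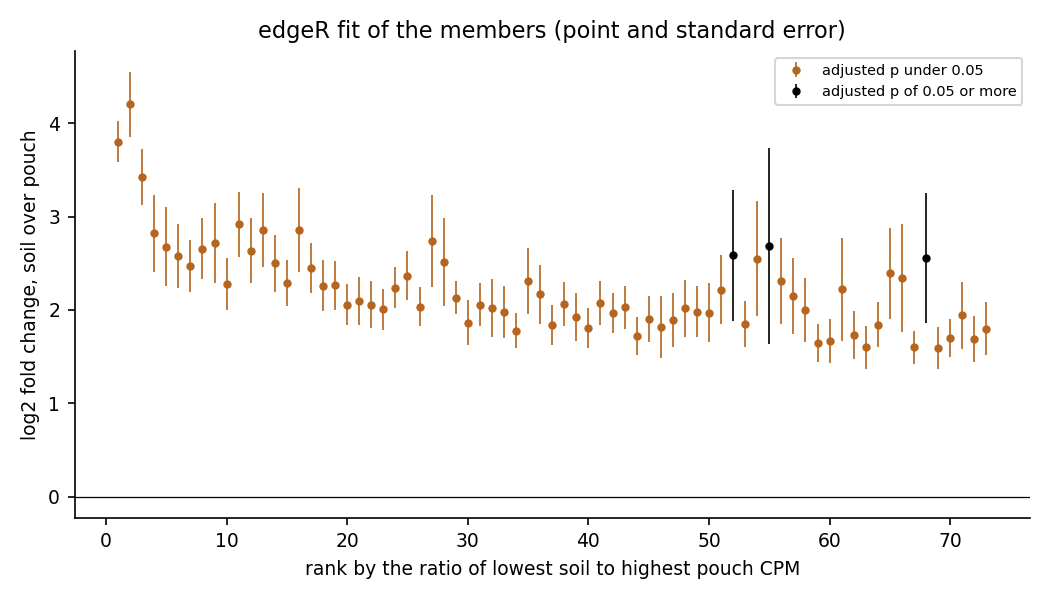
Log2 fold change (soil plate over pouch, TMM scaling) with its standard error from edgeR for the 73 members, by rank in the ratio of lowest soil plate to highest pouch CPM; brown points are called and black points are not. Values run from 1.59 to 4.20, and the black points, ranks 52, 55 and 68, have long error bars.

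Length was not part of the choice. The members had a median length of 2007 bases (quartiles 1495 and 2871), against 2084 bases (1481 and 2913) for the genes of the abundance part. Genes under 1000 bases were 9 members (12.3%) and 1090 of the abundance part (9.60%), and genes over 3000 bases were 17 members (23.3%) and 2626 (23.1%). The length distributions thus lay close together. Fractional counts, which mark reads divided between similar sequences, were seen in 19 members (26.0%) and in 1936 genes of the abundance part (17.0%). The 19 had a median length of 2614 bases and a median ratio of 2.37, and the other 54 had 1755 bases and 2.41. Levels of these 19 genes are less certain, since reads may have been assigned to a similar copy.

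By the digit in their identifiers, taken as the chromosome, 19 members (26.0%) were on chromosome 6, 14 (19.2%) on 3, 12 (16.4%) on 7, 10 (13.7%) on 2, 8 (11.0%) on 1, 7 (9.59%) on 4 and 3 (4.11%) on 5. The genes of the abundance part had 17.0% on chromosome 6, 10.1% on 7 and 13.2% on 5. Members were therefore 0.981 in 100 such genes on chromosome 6 and 1.04 in 100 on chromosome 7, against 0.201 in 100 on chromosome 5. These shares are counts without a test. No 2 members had neighbouring identifiers. Within 5 identifiers of each other there were 2 pairs, ranks 16 and 25 on chromosome 2 and ranks 10 and 21 on chromosome 7, each 4 identifiers apart. Among the 190 genes of the exchanged rule 6 such pairs were found. Members thus formed no runs of neighbouring identifiers, and their spread along the chromosomes was not measured.

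**Figure D5:**
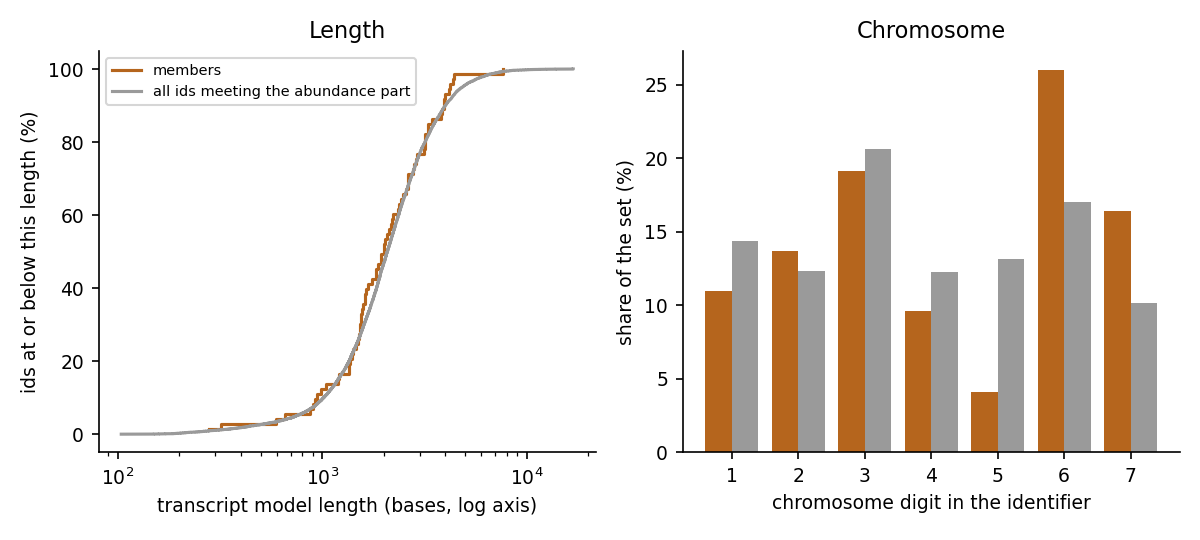
Left, cumulative share (%) of genes by transcript model length (bases, log axis) for the 73 members (brown) and the 11357 genes of the abundance part (grey), which nearly coincide (medians 2007 and 2084 bases). Right, share (%) of each set by the chromosome digit in the identifier, with 26.0% of members and 17.0% of genes on chromosome 6, and 4.11% and 13.2% on chromosome 5.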

How the data were processed

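RNA from 6 libraries of cucumber shoot apices, 3 per growth condition, was measured by sequencing. The deposited tables give an estimated count (expected count, partly fractional, not normalized) and a TPM value per transcript model, per the file headers. The tools fastp 0.23.4 and kallisto 0.46.1 are named in the submitters' processing notes; the index and settings are not given in the sources used here. Groups were taken from the sample titles. CPM is the estimated count divided by the library sum and scaled to 1000000. For the test, counts were rounded, filtered with filterByExpr and scaled with TMM, and groups were compared with edgeR 4.0.16 (glmQLFit, glmQLFTest, two-sided, no block) in R 4.3.3, with Benjamini-Hochberg adjustment over 17794 genes. The standard error was obtained from the log2 fold change and the F statistic, as the absolute change over root F. The test was tried on simulated counts. A count was called fractional if it differed from a whole number by over 0.001. Alternatives used RLE factors, library totals, no filter, DESeq2 1.42.0, limma 3.58.1 on log2(TPM + 1), a replicate block, and fits that left out each library in turn.

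Identifiers printed are the member with the largest ratio and the member with the highest mean CPM. Described by rank are ratio ranks 1 to 10, the 5 highest in mean CPM, genes at the limits, and the 3 longest and 3 shortest members; ranks 54, 55, 68 and 71 were added after their values were seen. The members and this rule were chosen with earlier results of these data known. No pair of libraries agreed within sampling noise (chi-square per degree of freedom at least 44.9).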

Additional observations from a re-analysis of the deposited data

How the results depend on the processing

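The rule was met by 73 genes. It was met by 144 with TMM-scaled sums, 152 with RLE-scaled sums, 221 at a ratio of 1.5, 15 at a ratio of 3, and 190 with the groups exchanged, and by 78 to 332 when a library was left out. The TMM and RLE factors were lower in every soil plate library than in any pouch library, which raises every ratio. The other settings of the rule (TPM, a mean of 5 or 20 CPM, no fractional counts) gave 54 to 86 genes. edgeR called 1396 genes, against 2595 with library totals, 2454 with DESeq2, 2298 with limma on log2(TPM + 1) and 628 with the replicate block. Of these, 875, 538, 1468, 349 and 449 in turn were higher in soil plate, so the balance of directions depended on the setting. Leaving out a library gave 103 to 2102. The cause was not tested. Of the members edgeR called 70, other tools and settings 68 to 72, and fits without a library 41 to 73. The replicate block gave 72 members. The deviations of same-numbered libraries correlated at -0.02, -0.02 and -0.03. These values gave no sign of pairing by replicate number but cannot exclude it. The sign of the members' fold changes is fixed by their choice. CsaV3_6G037520.1 kept its call in each of the 12 alternatives, and CsaV3_6G021240.1 lost it in 5, at edgeR adjusted p of 0.0696 to 0.154. Depth limited few members, and intervals for counting error are not given because the spread between libraries is larger.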

Other observations

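The ratio of 2 was also met by genes that failed the other parts of the rule. Within the abundance part the share that met it was 0.643%. Of the 100 most abundant genes, 3 had a lowest soil plate value at least 2 times the highest pouch value. The least abundant of them had 3401, 3742 and 3602 CPM in soil plate and 1405, 644 and 887 CPM in pouch. Of 170 genes with UNG identifiers and a mean of at least 10 CPM, 5 met the ratio. Under a mean of 10 CPM the ratio was met by 58 of 12065 genes, 13 of them among the 1912 with a mean of at least 5 CPM.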
